A study of Homo sapiens with 12 samples.

Results

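The UCH deubiquitinases are the ubiquitin carboxyl-terminal hydrolases, a family of 4 genes, UCHL1, UCHL3, UCHL5 and BAP1, among the 15601 human genes measured. The family was selected on measured values of UCHL1, which was high in 1 group of libraries and low in the other 3, and UCHL3, UCHL5 and BAP1 were taken as the rest of the family by name. The values of UCHL1 are therefore a description and were not tested in any comparison. RNA of SNU449, an established human hepatocellular carcinoma cell line, was measured by QuantSeq, a method that sequences the 3' ends of transcripts, in 12 libraries, 3 for each of 4 groups. The study asked how the receptor tyrosine kinase Axl bears on resistance to regorafenib (Rego), a multikinase inhibitor used in liver cancer.

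The groups were SNU449 control (naïve) cells, SNU449 cells made Rego-resistant, SNU449-Axl- control cells, in which AXL had been knocked out with CRISPR/Cas9, and SNU449-Axl- cells made Rego-resistant. Resistance had been raised by stepwise increases of Rego up to 2 times the IC50. A Rego-resistant group thus differs from its control by long selection. Whether Rego was present when RNA was taken is not stated. Effects of the selection and of the drug itself cannot be told apart. Each group is 1 cell population whose 3 libraries are technical triplicates. Differences between groups and differences between those populations cannot be told apart, and every p-value below measures only the spread between libraries of the same population. The depth of a library is unknown, as the counts behind the library values were not used here; added up over the genes of a table, the authors' mean normalized counts came to 4.16e+06 at the lowest and 4.92e+06 at the highest.

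UCH enzymes are cysteine proteases that release ubiquitin from small or disordered adducts and from the ends of ubiquitin precursors or chains. UCHL1 and UCHL3 consist of little more than the catalytic domain, while UCHL5 and BAP1 carry C-terminal extensions that tie them to large complexes, UCHL5 to the proteasome and the INO80 chromatin remodeller and BAP1 to ASXL proteins on chromatin. UCHL1 is best known as an abundant protein of neurons and neuroendocrine cells, and BAP1 as a tumour suppressor that is lost in a share of several cancers, liver and bile duct tumours included.

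Library values were read as scores: 2 raised to the variance-stabilized level of a gene, after removal of the effect of the preparation date, rounded. This reading was inferred from the methods of the authors and from the values, as the tables do not state the scale, and every difference below rests on it. Neither do they date the preparation of each library, and the replicate number stood in for that date in the tests. The values do not start at 0. The most common value among the 407 weakest genes, those with an authors' mean normalized count under 1.5, was 22 in each of the 12 libraries, and a gene with hardly any reads sits near that floor. Differences between groups are given as differences of group means of log2(value + 1), and a gene was called where the Benjamini-Hochberg adjusted p from limma, fitted over all 15601 genes, was under 0.05. The comparisons share groups with each other, so that a high or low group enters more than 1 of them.

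AXL served as a check of the groups. It had values of 727, 941 and 715 in SNU449 control libraries, 1237, 815 and 1271 in SNU449 Rego, 35, 53 and 33 in SNU449-Axl- control and 50, 38 and 52 in SNU449-Axl- Rego. All 6 libraries of SNU449-Axl- cells lay below all 6 of SNU449 cells. AXL fell by 4.29 with Axl loss in control cells (adjusted p = 2.16e-09) and fell by 4.52 in Rego-resistant cells (adjusted p = 1.27e-09), and was not called for Rego resistance in SNU449 (0.46, adjusted p = 0.272) or SNU449-Axl- (0.22, adjusted p = 0.67). VIM, an intermediate filament of mesenchymal cells, had values between 13759 and 27044. Of 18 hepatocyte markers 8 were measured. The secreted liver proteins ALB, APOB, TTR and SERPINA1 and the transcription factor HNF4A are not listed in the table of the 12 libraries, and AFP lay between 20 and 39. The fibrinogen chains FGB and FGG, also made by hepatocytes, reached 189, 547 and 294 and 91, 214 and 121 in SNU449-Axl- Rego. Endothelial PECAM1, VWF and CDH5 and the T cell gene CD3E are not listed either, and the leukocyte gene PTPRC lay between 19 and 31, at the floor or close to it.

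UCHL1 (ENSG00000154277.13, plus strand of chromosome 4 from 41256413 to 41268455, GRCh38) encodes the neuronal ubiquitin hydrolase that also binds and stabilises free ubiquitin. Its values were 1011, 1164 and 1366 in SNU449 control (mean 1180 ± 178, SD, n = 3), 21, 22 and 21 in SNU449 Rego (21.3 ± 0.577), 27, 22 and 21 in SNU449-Axl- control (23.3 ± 3.21) and 21, 22 and 21 in SNU449-Axl- Rego (21.3 ± 0.577). The 3 SNU449 control libraries are high, and the other 9 lie at the floor of 22 or, for replicate 1 of SNU449-Axl- control with 27, just above it. The order of the groups is therefore SNU449 control first and then 3 groups that do not differ beyond their spread. In bulk RNA, fewer cells that express UCHL1 and less UCHL1 RNA per cell cannot be told apart.

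As a description, the group means of UCHL1 differed by -5.71 between Rego-resistant and control SNU449 cells and by -5.60 between SNU449-Axl- and SNU449 control cells. Between groups at the floor the differences were -0.12 for Rego in SNU449-Axl- cells and 0.00 for Axl loss in Rego-resistant cells. The Rego effects of the backgrounds differed by 5.60. UCHL1 was already at or just above the floor in SNU449-Axl- control, where no further fall could show. The 5.60 therefore gives no measure of a Rego response that depends on Axl. Because 3 groups lie at the floor, the size of the large differences depends on how low values are handled: with log2(value + 16) the difference for Rego in SNU449 was -4.99. The span of the 4 group means of UCHL1, 5.71, ranks 3 among all genes, whose median span was 0.44.

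The tables of pairs of groups, made separately by the authors, show UCHL1 in another way. It is listed in the 3 of 6 that hold SNU449 control and is missing from the 3 that do not, as the authors had removed weakly expressed genes from each table, so that UCHL1 passed that filter only through the group where it is high. UCHL3, UCHL5 and BAP1 are listed in all 6. In the table of the SNU449 groups UCHL1 had values of 1002, 1062 and 1187 in control and 40, 37 and 34 in Rego libraries, whose lowest values for any gene were 29, 29 and 24. In the table of the control groups it had 1087, 1232 and 1398 in SNU449 and 44, 39 and 34 in SNU449-Axl-, against lowest values of 29, 29 and 24. In the table of SNU449 control and SNU449-Axl- Rego it had 1136, 1205 and 1344 in the former and 65, 61 and 55 in the latter, against lowest values of 49, 49 and 42. The lowest values thus differ between tables. A most common value of the weakest genes was taken for the 12-library table alone, so that these low values of UCHL1 are set beside the lowest gene and not beside a floor of the same kind.

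Group means on the scale of normalized counts were solved from the authors' mean counts of the 7 tables that differ in their libraries. For UCHL1 this gave 1180 in SNU449 control, 2.21 in SNU449 Rego, 3.62 in SNU449-Axl- control and 0 in SNU449-Axl- Rego, from the 4 tables that list it. The small means are at the limit of the solution and carry no order. For UCHL3 it gave 212, 164, 178 and 126 in the same order of groups, for UCHL5 214, 186, 334 and 262, and for BAP1 91.5, 128, 121 and 127. The residual was at most 0.037% of a gene's mean for UCHL3, UCHL5 and BAP1, each solved from 7 tables. For UCHL1, 4 tables were solved for 4 group means, so that its residual does not measure how well the solution fits.

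**Figure D1:**
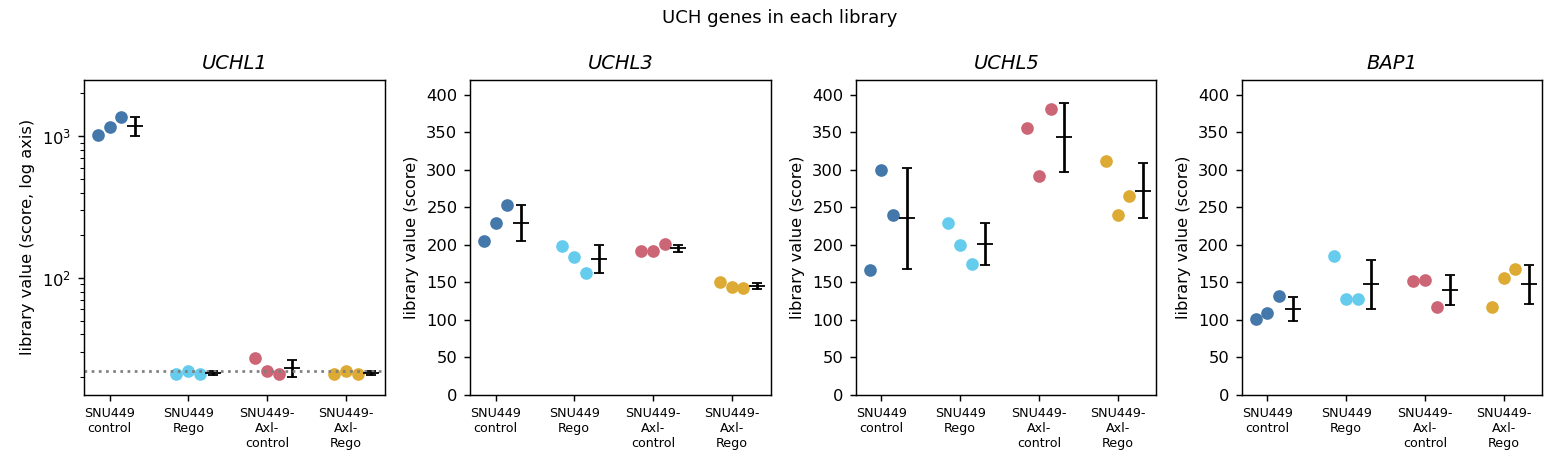
Values of UCHL1 (log axis), UCHL3, UCHL5 and BAP1 in each of the 12 libraries, with the mean and SD of each group in black; the dotted line marks the floor of 22. UCHL1 lies between 1011 and 1366 in SNU449 control and between 21 and 27 in the other groups, while the other genes stay between 101 and 381.

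The 250 bases before the start site of UCHL1 in RefSeq are shown in part because the gene is high in 1 group and at the floor in 3, and CpG dinucleotides are where a promoter can be methylated. Methylation was not measured. The stretch chr4:41256804-41256907 (GRCh38.p14, plus strand, RefSeq, written 5' to 3') covers 104 bases free of annotated UCHL1 exons and ends 21 bases before the RefSeq start site. In GENCODE the gene starts earlier, at 41256413, so that the stretch lies within its annotated span. Capitals mark the 9 CpG dinucleotides of the stretch.
UCHL1: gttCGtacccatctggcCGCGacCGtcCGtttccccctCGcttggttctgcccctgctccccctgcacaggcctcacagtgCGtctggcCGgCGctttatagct
The whole window of UCHL1 holds 20 CpG, and 32.4% of the 35116 windows of the same length in the RefSeq table hold at least as many, with a median of 11. Start sites of 3 members were matched. UCHL3 has windows with 23 and 20 CpG, and UCHL5 has windows with 22, 20 and 11. BAP1 has no entry.

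UCHL3 (ENSG00000118939.18, plus strand of chromosome 13 from 75549480 to 75606020) encodes a hydrolase that acts on ubiquitin and also on the ubiquitin-like protein NEDD8. Its values were 205, 229 and 253 in SNU449 control (229 ± 24), 198, 183 and 162 in SNU449 Rego (181 ± 18.1), 192, 192 and 201 in SNU449-Axl- control (195 ± 5.2) and 150, 144 and 142 in SNU449-Axl- Rego (145 ± 4.16). All Rego libraries lay below all control libraries of the same background, and all SNU449-Axl- libraries lay below all SNU449 libraries of the same treatment. How many of all genes separate in this way was not counted, for UCHL3 or for the genes below. UCHL3 did not pass the test in any comparison. The difference for Rego was -0.34 in SNU449 (95% interval -0.71 to 0.04, adjusted p = 0.294). In SNU449-Axl- cells it was -0.42 (-0.80 to -0.05, adjusted p = 0.204), an interval for this gene alone that leaves out 0 without passing the adjustment over all genes. Axl loss gave -0.23 in control cells (-0.60 to 0.15, adjusted p = 0.518) and -0.31 in Rego-resistant cells (-0.69 to 0.07, adjusted p = 0.386). Both depend on the scaling of the libraries: centred on the spike-in RNAs they were -0.02 and -0.02, with adjusted p = 0.96 and 0.957. Without replicate 3 of SNU449 control the first was -0.13. The Rego effects of the backgrounds differed by -0.08 (-0.62 to 0.45, adjusted p = 0.904), a sign that turned to 0.01 with the spike-in centring, to 0.02 without replicate 1 of SNU449 control and to 0.004 without replicate 1 of SNU449 Rego. It was -0.18 and -0.19 without replicate 3 of SNU449 control and of SNU449 Rego, and -0.06 without replicate 3 of SNU449-Axl- control.

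UCHL5 (ENSG00000116750.14, minus strand of chromosome 1 from 193012250 to 193060080) encodes the hydrolase that trims ubiquitin chains at the proteasome. Its values were 166, 300 and 239 in SNU449 control (235 ± 67.1), 229, 199 and 174 in SNU449 Rego (201 ± 27.5), 356, 292 and 381 in SNU449-Axl- control (343 ± 45.9) and 312, 240 and 265 in SNU449-Axl- Rego (272 ± 36.6). SNU449-Axl- libraries were the higher ones: in Rego-resistant cells the backgrounds did not overlap, and in control cells they overlapped through replicate 2 of SNU449 control with 300 and replicate 2 of SNU449-Axl- control with 292. The SNU449 control libraries of UCHL5 were spread more widely than those of any other group.

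Axl loss in control cells gave UCHL5 a difference of 0.58 (0.11 to 1.05, adjusted p = 0.134), and in Rego-resistant cells 0.44 (-0.03 to 0.91, adjusted p = 0.309). The first depends on single libraries of SNU449 control: without replicate 1 it was 0.27 (adjusted p = 0.573), and without replicate 2 it was 0.84 and past the threshold (adjusted p = 0.0495). Over all 18 alternatives the adjusted p ran from 0.0495 to 0.573. In Rego-resistant cells the difference was 0.73 when libraries were centred on the spike-in RNAs (adjusted p = 0.059, the lowest of a range up to 0.672). For Rego the differences of UCHL5 were -0.19 in SNU449 (-0.66 to 0.27, adjusted p = 0.677) and -0.33 in SNU449-Axl- (-0.80 to 0.14, adjusted p = 0.464). The first was -0.50 without replicate 1 of SNU449 control and turned to 0.07 without replicate 2, and was -0.33 and -0.06 without replicates 1 and 3 of SNU449 Rego; the second was -0.19 with the spike-in centring and -0.22 without replicate 2 of SNU449-Axl- Rego. The Rego effects differed by -0.14 (-0.80 to 0.53, adjusted p = 0.872), a value that moved with most single libraries. It was 0.17 and -0.40 without replicates 1 and 2 of SNU449 control, -0.006 and -0.27 without replicates 1 and 3 of SNU449 Rego, -0.28 and -0.03 without replicates 2 and 3 of SNU449-Axl- control and -0.27 and -0.02 without replicates 1 and 2 of SNU449-Axl- Rego, and -0.05 with the spike-in centring.

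BAP1 (ENSG00000163930.10, minus strand of chromosome 3 from 52401008 to 52410008) encodes a nuclear member of the family, which removes ubiquitin from histone H2A. Its values were 101, 109 and 132 in SNU449 control (114 ± 16.1), 185, 128 and 128 in SNU449 Rego (147 ± 32.9), 151, 153 and 117 in SNU449-Axl- control (140 ± 20.2) and 117, 155 and 168 in SNU449-Axl- Rego (147 ± 26.5). SNU449 control held the lowest libraries, and its range overlapped that of each other group. The differences of BAP1 were 0.35 for Rego in SNU449 (-0.11 to 0.81, adjusted p = 0.383) and 0.06 in SNU449-Axl- (-0.40 to 0.52, adjusted p = 0.926). The first was 0.12 without replicate 1 of SNU449 Rego. The second turned to -0.11 without replicate 3 of SNU449-Axl- control, to -0.08 without replicate 3 of SNU449-Axl- Rego and to -0.007 without replicate 2 of that group, and was 0.13 and 0.15 without replicates 1 and 2 of SNU449-Axl- control and 0.26 without replicate 1 of SNU449-Axl- Rego. Axl loss gave 0.30 in control cells (-0.16 to 0.75, adjusted p = 0.479) and 0.00 in Rego-resistant cells (-0.46 to 0.46), where the sign turned with upper-quartile rescaling and without replicate 2 or 3 of SNU449 Rego or of SNU449-Axl- Rego. With centring on the spike-in RNAs the differences for Axl loss were 0.50 and 0.29, and that for Rego in SNU449-Axl- was 0.19. Axl loss in control cells gave 0.19 without replicate 1 of SNU449 control and 0.46 without replicate 3 of SNU449-Axl- control, and in Rego-resistant cells 0.24 without replicate 1 of SNU449 Rego and 0.21 without replicate 1 of SNU449-Axl- Rego. The Rego effects differed by -0.29 (-0.94 to 0.35, adjusted p = 0.672), and by -0.06 without replicate 1 of SNU449 Rego, -0.09 without replicate 1 of SNU449-Axl- Rego, -0.19 without replicate 1 of SNU449 control and -0.46 without replicate 3 of SNU449-Axl- control. The span of the group means of BAP1, 0.35, lay below the median span of all genes, while those of UCHL3 (0.65) and UCHL5 (0.77) lay above it.

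Counted over the 3 members that were tested, limma called 0 in each comparison. For Rego in SNU449, 0 of 3 were called, and 0 had an unadjusted p under 0.05, beside 1219 of all genes (7.81%), 673 of them up (4.31%) and 546 down (3.5%). For Rego in SNU449-Axl- cells, 0 of 3 were called and 1, UCHL3, had an unadjusted p under 0.05, beside 678 genes called (4.35%), 396 up (2.54%) and 282 down (1.81%). With Axl loss in control cells, 0 of 3 were called and 1, UCHL5, had an unadjusted p under 0.05, beside 1163 genes (7.45%), 628 up (4.03%) and 535 down (3.43%). With so few genes tested, a count of 0 lies near each of these shares. For Axl loss in Rego-resistant cells, 0 of 3 were called and 0 had an unadjusted p under 0.05, beside 682 genes (4.37%), 381 up (2.44%) and 301 down (1.93%). For the difference of the Rego effect between backgrounds, 0 of 3 were called and 0 had an unadjusted p under 0.05, beside 916 genes (5.87%), 455 up (2.92%) and 461 down (2.95%).

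**Figure D2:**
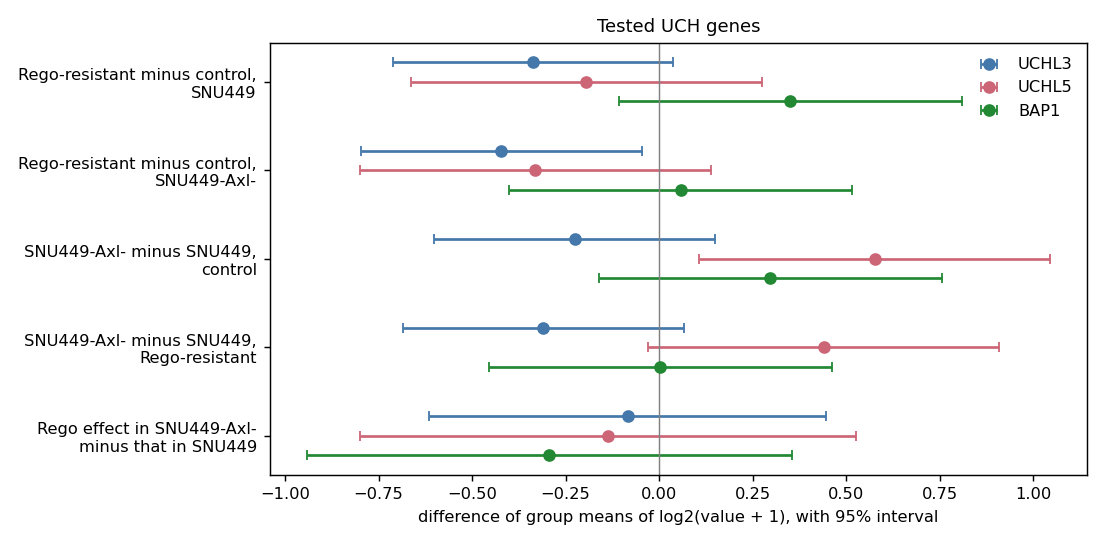
Differences of group means of log2(value + 1) of UCHL3, UCHL5 and BAP1 in the 5 comparisons, with 95% intervals from limma. The intervals leave out 0 for UCHL3 with Rego in SNU449-Axl- cells (-0.42) and for UCHL5 with Axl loss in control cells (0.58), and neither passed the adjusted threshold.

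The level of all genes moved with the scaling of the libraries. Centring each library on the spike-in RNAs added 0.05 to every difference for Rego in SNU449, 0.14 for Rego in SNU449-Axl-, 0.20 for Axl loss in control cells, 0.29 for Axl loss in Rego-resistant cells and 0.09 for the difference of the Rego effect. With that scaling 96.2% of the genes called for Axl loss in Rego-resistant cells were up, against 55.9% without it. For Rego in SNU449 the share was 61.7% against 55.2%, for Rego in SNU449-Axl- 84.2% against 58.4%, for Axl loss in control cells 84.5% against 54%, and for the difference 63.4% against 49.7%. The shift is the same for each gene, so that the place of UCHL3, UCHL5, BAP1 and of each list below relative to the median of all genes is unaffected by it.

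A list of 27 genes, here the partner list, held genes that work with UCHL5 and BAP1. It also held subunits of Polycomb complexes, which place the histone mark that BAP1 removes and are not its partners. Of the 27 genes 26 were measured. Of these, 3 of 26 were called for Rego in SNU449 (11.5%, beside 7.81% of all genes), 1 up and 2 down. The list median was -0.08 beside 0.00 for all genes. RYBP, a subunit of the Polycomb complexes that place the ubiquitin on histone H2A that BAP1 removes, had values of 390, 370 and 212 in SNU449 control and 150, 117 and 207 in SNU449 Rego. RNF2, the ubiquitin ligase of those complexes, had 224, 189 and 161 in control and 107, 114 and 119 in Rego libraries. The ranges of both genes lay lower in Rego-resistant cells, without overlap. RYBP fell by 1.02 (adjusted p = 0.0193) and RNF2 fell by 0.74 (adjusted p = 0.0271), and FOXK2, a forkhead protein that binds BAP1, rose by 0.65 (adjusted p = 0.0493). RYBP lost the call in 5 of 18 alternatives, RNF2 in 7 and FOXK2 in 13, with adjusted p up to 0.149, 0.141 and 0.274. The list count was 0 without replicate 1 or 2 of SNU449 control or replicate 1 of SNU449 Rego and in the table of the pair, and 1 without replicate 2 or 3 of SNU449 Rego and with centring on the spike-in RNAs.

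Genes of the partner list were also called in other comparisons, and the counts were not tested against each other. For Rego in SNU449-Axl- cells 1 of 26 was called (3.85%, beside 4.35% of all genes), with a list median of -0.11 beside 0.01. PCGF5, another Polycomb subunit, with 427, 341 and 355 in control and 190, 208 and 228 in Rego libraries, fell by 0.84 (adjusted p = 0.0117). Axl loss in control cells also gave 1 of 26 (3.85%, beside 7.45% of all genes), with a median of 0.01 beside 0.00. ASXL1, which activates BAP1, had 683, 679 and 721 in SNU449 and 475, 457 and 467 in SNU449-Axl-, and fell by 0.57 (adjusted p = 0.0458). The libraries of these genes do not overlap between the groups compared, yet PCGF5 lost the call in 4 and ASXL1 in 13 of 18 alternatives, with adjusted p up to 0.0902 and 0.277. For Rego in SNU449-Axl- the list count was 0 without replicate 1 of SNU449-Axl- control or replicate 1 or 2 of SNU449-Axl- Rego and with the spike-in centring. The count for Axl loss in control cells was 2 without replicate 3 of SNU449 Rego and 0 without any other 1 of the 12 libraries and in the table of the pair.

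For Axl loss in Rego-resistant cells, 2 of 26 genes of the partner list were called (7.69%, beside 4.37% of all genes). The list median was -0.05 beside 0.01. TFPT, a subunit of the INO80 complex that holds UCHL5, had 132, 113 and 101 in SNU449 Rego and 57, 56 and 64 in SNU449-Axl- Rego, and fell by 0.95 (adjusted p = 0.00785). RNF2 had 107, 114 and 119 against 170, 232 and 211, and rose by 0.83 (adjusted p = 0.0211). TFPT lost the call in 4 and RNF2 in 5 of 18 alternatives, with adjusted p up to 0.0637 and 0.157. The list count was 0 without replicate 1 of SNU449 Rego or replicate 2 of SNU449-Axl- Rego, and 1 without any other 1 of the libraries compared. For the difference of the Rego effect limma called 0 of 26, beside 5.87% of all genes. In the list 6 had an unadjusted p under 0.05, and the median was -0.01 beside 0.01. There 2 were called without replicate 3 of SNU449 control, without replicate 3 of SNU449 Rego and with a mean normalized count of at least 50.

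The direct anchors of UCHL5 were measured in each library. ADRM1, the proteasome subunit that recruits and activates UCHL5, had values of 602, 1064 and 758 in SNU449 control, 869, 725 and 920 in SNU449 Rego, 926, 986 and 770 in SNU449-Axl- control and 678, 432 and 612 in SNU449-Axl- Rego. Its lowest library, 432, belongs to SNU449-Axl- Rego, and ADRM1 was not called in any of the 5 comparisons. NFRKB, which holds UCHL5 inactive in INO80, ranged from 99 to 164 and was not called either. Of the partners of BAP1, ASXL2 ranged from 127 to 210, HCFC1 from 217 to 490 and OGT from 110 to 204. FOXK1 ranged from 177 to 236 and KDM1B from 53 to 76. BMI1, a Polycomb subunit, ranged from 221 to 300. There was no call for these genes in the 5 comparisons.

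The substrates' genes came next. Of 14 genes for ubiquitin and ubiquitin-like precursors 13 were measured. UBB, a polyubiquitin gene, ranged from 2509 to 4373 over the 12 libraries, and RPS27A, a fusion of ubiquitin with a ribosomal protein, from 13720 to 25482. NEDD8, a substrate of UCHL3, ranged from 536 to 908. With limma, 0 of 13 were called in each of the 5 comparisons, while 1, 2, 1, 2 and 3 had an unadjusted p under 0.05 for Rego in SNU449, Rego in SNU449-Axl-, Axl loss in control cells, Axl loss in Rego-resistant cells and the difference. Of all genes 7.81%, 4.35%, 7.45%, 4.37% and 5.87% were called in that order. Without replicate 3 of SNU449 control, or without replicate 3 of SNU449-Axl- control, 1 was called for Rego in SNU449-Axl- and 1 for the difference, and the table of the pair gave 2 for Axl loss in Rego-resistant cells. The list medians in the same order were -0.15, -0.06, -0.07, 0.06 and 0.10, beside 0.00, 0.01, 0.00, 0.01 and 0.01 for all genes.

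**Figure D3:**
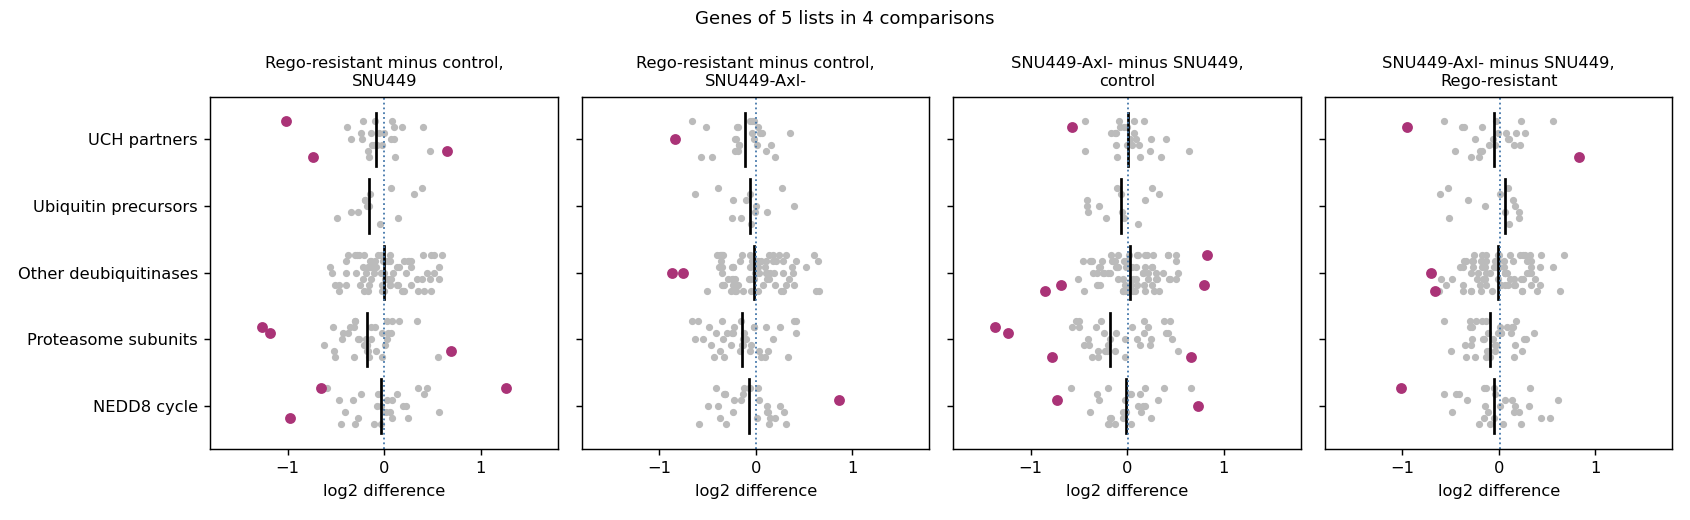
Differences of group means (log2) of the genes of 5 lists in 4 comparisons; purple points were called by limma at an adjusted p under 0.05, black bars are list medians and the dotted line is the median of all genes. For Rego in SNU449, 3 of 26 genes of the partner list were called (11.5%, beside 7.81% of all genes).

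Deubiquitinases of the other families numbered 90, of which 81 were measured. With limma, 0 of 81 were called for Rego in SNU449, beside 7.81% of all genes, and 16 had an unadjusted p under 0.05. USP7, which acts on MDM2 and p53, had 607, 569 and 627 in SNU449-Axl- control and 364, 340 and 287 in SNU449-Axl- Rego, without overlap. It fell by 0.87 with Rego in SNU449-Axl- cells (adjusted p = 0.00818), a call lost without replicate 3 of SNU449-Axl- Rego (adjusted p = 0.0753). USP39, a splicing factor with the fold of the USP family, fell by 0.75 there (adjusted p = 0.0253), the second of 2 called (2.47%, beside 4.35% of all genes). With Axl loss in control cells 4 of 81 were called (4.94%, beside 7.45% of all genes). OTUD4 fell by 0.85 (adjusted p = 0.00869) and MINDY3 fell by 0.68 (adjusted p = 0.0406), and MPND rose by 0.83 (adjusted p = 0.0161) and USP11 by 0.80 (adjusted p = 0.0415). In Rego-resistant cells Axl loss gave 2 calls (2.47%, beside 4.37% of all genes), USP7, which fell by 0.70 (adjusted p = 0.0304), and EIF3F, which fell by 0.66 (adjusted p = 0.046). Of the calls in these comparisons, USP39 lost its call in 5, OTUD4 in 3, MINDY3 in 8, USP11 in 10, EIF3F in 10 and USP7 for Axl loss in 7 of 18 alternatives, and MPND in 3 of 17. Single libraries decide these counts in each comparison. For Rego in SNU449, 1 was called without replicate 1 or 3 of SNU449 control, and for Rego in SNU449-Axl- 1 was called without replicate 2 or 3 of SNU449-Axl- control or of SNU449-Axl- Rego. For Axl loss in control cells the count was 0 without replicate 2 of SNU449 control, 1 without replicate 1 or 2 of SNU449-Axl- control and 2 without replicate 1 of SNU449 control or replicate 1 or 3 of SNU449-Axl- Rego. In Rego-resistant cells it was 0 without replicate 1 or 2 of SNU449 Rego or any 1 of SNU449-Axl- Rego, and 1 without replicate 1 or 2 of SNU449 control, replicate 3 of SNU449 Rego or replicate 2 of SNU449-Axl- control. Centring on the spike-in RNAs gave 4 for Rego in SNU449-Axl- and 7 for Axl loss in Rego-resistant cells, and the tables of the pairs 1 and 5 for Axl loss in control and Rego-resistant cells. List medians were 0.00, -0.01, 0.03 and -0.01 in these 4 comparisons, beside 0.00, 0.01, 0.00 and 0.01.

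UCHL5 works at the proteasome, whose 40 listed subunits included 39 that were measured. PSMB8, a catalytic subunit of the immunoproteasome, had 410, 388 and 556 in SNU449 control, 163, 234 and 167 in SNU449 Rego, 234, 167 and 130 in SNU449-Axl- control and 185, 191 and 241 in SNU449-Axl- Rego. PSMB9, a partner subunit of the same particle, had 460, 399 and 551, then 157, 273 and 200, then 276, 168 and 166, then 249, 272 and 273 in the same groups. Both were high in SNU449 control alone, as UCHL1 was, but lay well above the floor elsewhere. For Rego in SNU449 3 of 39 subunits were called (7.69%), near the 7.81% of all genes. PSMB8 fell by 1.26 (adjusted p = 0.00238) and PSMB9 fell by 1.18 (adjusted p = 0.00407), and PSMD8 rose by 0.69 (adjusted p = 0.02). For Axl loss in control cells 4 of 39 were called (10.3%, beside 7.45% of all genes). Among them PSMB8 fell by 1.37 (adjusted p = 0.00153) and PSMB9 fell by 1.23 (adjusted p = 0.00339). PSME1, an activator subunit, fell by 0.77 there (adjusted p = 0.0324), and PSMC4, an ATPase of the regulatory particle, rose by 0.66 (adjusted p = 0.0393). PSMB8 and PSMB9 kept these calls in all 18 alternatives, while PSMD8 lost its call in 6 and PSMC4 in 10. For Axl loss in control cells the list count was 2 without replicate 1 or 3 of SNU449 control, replicate 2 of SNU449-Axl- control or replicate 1 of SNU449-Axl- Rego. These 2 were PSMB8 and PSMB9, so that PSME1 lost its call there as well.

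In the other comparisons of the groups limma called 0 of 39 proteasome subunits, beside 4.35% and 4.37% of all genes. For Rego in SNU449-Axl- 7 had an unadjusted p under 0.05, and for Axl loss in Rego-resistant cells 2. The count of calls was 1 for the former without replicate 1 of SNU449-Axl- control, and 1 for the latter in the table of the pair. The list medians were -0.18 for Rego in SNU449, -0.14 for Rego in SNU449-Axl-, -0.18 for Axl loss in control cells and -0.09 for Axl loss in Rego-resistant cells, beside 0.00, 0.01, 0.00 and 0.01 for all genes. With the centring on spike-in RNAs the medians of all genes and of the list shift alike.

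UCHL3 can process NEDD8, and all 29 genes listed for the NEDD8 cycle were measured. UBE2M, the main conjugating enzyme of NEDD8, had 199, 234 and 238 in SNU449 control, 503, 481 and 641 in SNU449 Rego, 442, 384 and 261 in SNU449-Axl- control and 254, 262 and 284 in SNU449-Axl- Rego. SNU449 Rego was the highest group and SNU449 control the lowest, without overlap. For Rego in SNU449 3 of 29 were called (10.3%, beside 7.81% of all genes). UBE2M rose by 1.27 (adjusted p = 0.000835), CUL4B, a cullin that NEDD8 activates, fell by 0.98 (adjusted p = 0.00541), and COPS8, a subunit of the complex that takes NEDD8 off cullins, fell by 0.65 (adjusted p = 0.043). For Rego in SNU449-Axl- cells 1 was called (3.45%, beside 4.35% of all genes), COPS4 of the same complex, which rose by 0.86 (adjusted p = 0.0236). For Axl loss in control cells COPS4 fell by 0.72 (adjusted p = 0.0413) and the ligase subunit RNF7 rose by 0.73 (adjusted p = 0.0176), and in Rego-resistant cells UBE2M fell by 1.01 (adjusted p = 0.00971). These calls for Axl loss were 6.9% and 3.45% of the list, beside 7.45% and 4.37% of all genes. UBE2M for Rego and CUL4B kept the call in all 18 alternatives, while COPS8 lost it in 11, COPS4 in 5 for Rego and 11 for Axl loss, RNF7 in 4 and UBE2M for Axl loss in 4. For Rego in SNU449-Axl- the list count was 0 without replicate 2 or 3 of SNU449-Axl- control or any 1 of SNU449-Axl- Rego. That for Axl loss in control cells was 0 without replicate 1 or 2 of SNU449-Axl- control and in the table of the pair, and 1 without replicate 2 or 3 of SNU449 control, replicate 2 of SNU449 Rego or any 1 of SNU449-Axl- Rego. In Rego-resistant cells it was 0 without replicate 3 of SNU449 Rego or replicate 1 or 2 of SNU449-Axl- Rego, 2 in the table of the pair and 3 with centring on the spike-in RNAs. The list medians were -0.03, -0.07, -0.01 and -0.05, beside 0.00, 0.01, 0.00 and 0.01.

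The Rego effect itself differed between the backgrounds for some genes of these lists, with UCHL3, UCHL5 and BAP1 not among them. Of all genes 5.87% were called for this difference, beside 7.69% of the proteasome list, 6.9% of the NEDD8 cycle and 3.7% of other deubiquitinases. In the proteasome list 3 of 39 were called, PSMB8 (1.51, adjusted p = 0.0112), PSMB9 (1.60, adjusted p = 0.008) and PSMC4 (-0.99, adjusted p = 0.0322), and the list median was 0.12 beside 0.01. In the NEDD8 cycle 2 of 29 were called, UBE2M (-1.67, adjusted p = 0.00246) and COPS4 (1.33, adjusted p = 0.0109), with a median of 0.00 beside 0.01. Among other deubiquitinases 3 of 81 were called, OTUD4 (1.09, adjusted p = 0.0192), MPND (-0.998, adjusted p = 0.0452) and USP7 (-0.86, adjusted p = 0.04996), with a median of -0.09 beside 0.01. A call for PSMB8, PSMB9, UBE2M and COPS4 was kept in all 17 alternatives, while OTUD4 lost it in 5, MPND in 11 of 16, PSMC4 in 10 and USP7 in 15. The count of other deubiquitinases was 0 without replicate 2 of SNU449 control, replicate 2 of SNU449 Rego or replicate 1 or 2 of SNU449-Axl- Rego. It was 1 without replicate 3 of SNU449 control, SNU449 Rego or SNU449-Axl- Rego, without any 1 of SNU449-Axl- control, with upper-quartile rescaling and with centring on the spike-in RNAs.

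UCHL1 is a marker of neuronal and neuroendocrine cells, and the other markers of such cells were read beside it. Of 29 listed genes 7 were measured. CHGA, CHGB, NCAM1, INSM1, STMN2, GAP43, TUBB3, ELAVL4 and SNAP25 are not listed in the table. The summed value of the 7 was 871, 757 and 662 in SNU449 control, 510, 508 and 672 in SNU449 Rego, 662, 604 and 626 in SNU449-Axl- control and 557, 659 and 565 in SNU449-Axl- Rego. The sums of SNU449 control replicates 1 and 2 lie above those of all 9 other libraries, and that of replicate 3 lies within their range. ENO2, a neuronal enolase that many tumours express and the highest of the 7 in 11 of 12 libraries, had 228, 219 and 230 in SNU449 control and between 108 and 198 in the other 9 libraries. SYP, a synaptic vesicle protein, had 27, 21 and 40 in SNU449 control, 46, 49 and 30 in SNU449 Rego, 47, 45 and 40 in SNU449-Axl- control and 25, 33 and 31 in SNU449-Axl- Rego, so that SNU449 control is not its high group. The differences of the 7 genes ran from -0.87 to 0.51, the latter that of SYP, for Rego in SNU449 and from -0.68 to 0.75 for Axl loss in control cells. With limma 0 of 7 were called in the 5 comparisons, beside 7.81%, 4.35%, 7.45%, 4.37% and 5.87% of all genes. In the list 4, 2, 4, 1 and 2 genes had an unadjusted p under 0.05. Single libraries decide part of these counts. For Rego in SNU449, 2 were called without replicate 3 of SNU449 control, 1 without replicate 3 of SNU449 Rego and 1 without replicate 1 of SNU449-Axl- control. With Axl loss in control cells, 2 were called without replicate 3 of SNU449 control and 1 without replicate 3 of SNU449-Axl- control. For the difference of the Rego effect, 1 was called without replicate 3 of SNU449 control and 2 without replicate 3 of SNU449 Rego. Without the replicate number as a term, 2, 0, 1, 0 and 1 were called; with centring on the spike-in RNAs, 2 were called for Axl loss in control cells and 1 for Axl loss in Rego-resistant cells, and the table of the pair gave 1 for Rego in SNU449-Axl-. The list medians were -0.42, -0.26, -0.30, 0.01 and 0.11, beside 0.00, 0.01, 0.00, 0.01 and 0.01. The part of these genes in the values of UCHL1 was not tested.

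Markers of other cell states were read beside UCHL1 as well. FN1, the matrix protein fibronectin, had 2491, 1437 and 2923 in SNU449 control, 336, 453 and 650 in SNU449 Rego, 559, 377 and 463 in SNU449-Axl- control and 2543, 4850 and 1351 in SNU449-Axl- Rego. It was high in SNU449 control, as UCHL1 was, and high again in SNU449-Axl- Rego, where UCHL1 was at the floor. FN1 fell by 2.24 with Rego in SNU449 (adjusted p = 0.000686) and fell by 2.25 with Axl loss in control cells (adjusted p = 0.000867), and rose by 2.47 with Rego in SNU449-Axl- (adjusted p = 0.000544) and rose by 2.46 with Axl loss in Rego-resistant cells (adjusted p = 0.00049). Of the 8 mesenchymal and simple epithelial markers measured of 11, 1, 2, 2 and 2 were called in the 4 comparisons of groups (12.5%, 25%, 25% and 25%). The shares of all genes were 7.81%, 4.35%, 7.45% and 4.37%. The list medians were -0.09, 0.20, 0.27 and 0.12 beside 0.00, 0.01, 0.00 and 0.01 for all genes. For the difference of the Rego effect 1 was called, FN1 (12.5%, beside 5.87% of all genes), with a list median of -0.02 beside 0.01. The others called were SNAI2, which fell by 0.83 with Rego in SNU449-Axl- (adjusted p = 0.0483, lost in 9 of 17 alternatives), and KRT8, which rose by 0.79 with Axl loss in control cells (adjusted p = 0.0332, lost in 6 of 18) and by 1.58 in Rego-resistant cells (adjusted p = 0.000248). For Rego in SNU449-Axl- the list count was 1 without replicate 2 of SNU449 control, replicate 1 or 2 of SNU449 Rego or SNU449-Axl- Rego, or replicate 2 or 3 of SNU449-Axl- control. With Axl loss in control cells it was 1 without replicate 2 of SNU449 control or any 1 of SNU449-Axl- control and in the table of the pair. VIM was the most abundant of them in each library, and the sum of the list ran from 16604 to 29257.

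Of the 8 hepatocyte markers measured, limma called 0 for Rego in SNU449, with 0 at an unadjusted p under 0.05, 3 up for Rego in SNU449-Axl-, 2 up for Axl loss in control cells and 4 up for Axl loss in Rego-resistant cells. The last 3 counts are 37.5%, 25% and 50% of the list, beside 2.54%, 4.03% and 2.44% of all genes called up. FGB, the fibrinogen beta chain, had 44, 16 and 24 in SNU449 control, 41, 22 and 24 in SNU449 Rego, 36, 63 and 72 in SNU449-Axl- control and 189, 547 and 294 in SNU449-Axl- Rego. It was highest in SNU449-Axl- Rego, a group in which UCHL1 lay at the floor. FGB rose by 2.49 with Rego in SNU449-Axl- (adjusted p = 0.000805) and by 3.44 with Axl loss in Rego-resistant cells (adjusted p = 2.9e-05), and FGG, the gamma chain, rose by 1.35 (adjusted p = 0.0147), by 2.39 (adjusted p = 0.000106) and with Axl loss in control cells by 1.24 (adjusted p = 0.015). CYP2E1, a cytochrome P450 of hepatocytes, was not among the genes called and had 36, 45 and 32 in SNU449 control, 31, 39 and 29 in SNU449 Rego, 27, 20 and 27 in SNU449-Axl- control and 25, 20 and 30 in SNU449-Axl- Rego. Its differences for Axl loss, -0.59 in control and -0.39 in Rego-resistant cells, were the lowest of the list, opposite in sign to those of the called genes. AFP was also called for Axl loss in control cells, a call lost in 7 of 17 alternatives, among them the omission of each of the 6 libraries compared. FGB kept both calls in all 18 alternatives and FGG that for Axl loss in Rego-resistant cells in all 17, while FGG lost its call for Rego in SNU449-Axl- and for Axl loss in control cells in 3 of 17 each. The list count for Rego in SNU449-Axl- was 1 without replicate 1 or 2 of SNU449-Axl- control or replicate 2 of SNU449-Axl- Rego. With Axl loss in control cells it was 1 without replicate 3 of SNU449 control and 0 without replicate 2 of SNU449 control or replicate 2 or 3 of SNU449-Axl- control. In Rego-resistant cells it was 2 without any 1 of the SNU449 Rego libraries or without replicate 2 or 3 of SNU449-Axl- Rego. The list medians were 0.02, 0.36, 0.19 and 0.60, beside 0.00, 0.01, 0.00 and 0.01 for all genes. For the difference of the Rego effect 1 was called, FGB (12.5%, beside 5.87% of all genes), with a list median of 0.46 beside 0.01. Without replicate 2 of SNU449-Axl- Rego 0 were called for that difference, and without replicate 2 of SNU449 control 2. The sum of the list was 186 to 287 in the first 3 groups and 459, 949 and 604 in SNU449-Axl- Rego, with FGB the most abundant gene there. Of 10 markers of endothelial, leukocyte and stellate cells 6 were measured, with sums between 187 and 299. Of these 1 was called (16.7%, beside 4.37% of all genes), LRAT, which rose by 0.75 with Axl loss in Rego-resistant cells (adjusted p = 0.0433, lost in 6 of 17 alternatives). The list medians were 0.00, -0.11, 0.26 and 0.05 in the 4 comparisons of groups and -0.14 for the difference of the Rego effect. In the other 4 comparisons limma called 0, with 0 at an unadjusted p under 0.05; without replicate 1 of SNU449 control 1 was called for Axl loss in control cells, and the table of the pair gave 1 for Rego in SNU449-Axl-. The part of these marker genes in the values of UCHL1 was not tested.

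Genes with a pattern like that of UCHL1 were ranked by Pearson r of log2(value + 1) over the 12 libraries, among the 1206 other genes whose group means span at least 1. Of these 47 had r of at least 0.9 and 38 had r of -0.9 or less. The points are libraries of 4 groups, so that r mostly reflects 1 high group, and it was not tested. The 10 with the highest r were BTBD11 (r = 0.99), TNFRSF11B (0.99), HLA-DRA (0.99), SALL1 (0.98), GALNT7 (0.98), BCAT1 (0.98), the gene ENSG00000234147 (0.98), KCTD4 (0.98), FLNC (0.98) and NHS (0.97).

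BCAT1, a transaminase of branched-chain amino acids, comes closest in level to UCHL1 among them, with 678, 565 and 426 in SNU449 control and between 20 and 42 in the other 9 libraries. NHS had 230, 202 and 212 in SNU449 control and between 26 and 54 elsewhere. TNFRSF11B, the decoy receptor osteoprotegerin, had 60, 62 and 86 in SNU449 control and between 20 and 22 elsewhere, and the transcription factor SALL1 had 76, 56 and 62 against 20 to 22. HLA-DRA, an antigen-presenting MHC class II chain, had 44, 51 and 50 in SNU449 control and between 20 and 24 elsewhere. Like UCHL1, the last 3 sit at the floor or just above it in the libraries outside SNU449 control, so that their values there show no order.

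The lowest r belonged to WNT7B, a secreted Wnt ligand (r = -0.98), ARHGDIB (-0.98), KRT81, a hair keratin (-0.98), CITED4 (-0.97) and SLC12A7 (-0.97). WNT7B had 62, 70 and 69 in SNU449 control and between 475 and 872 in the other 9 libraries, and KRT81 had 50, 55 and 21 against 690 to 1848. These genes are low where UCHL1 is high. By r over the 4 group means, 5 of the 10 and 4 of the 5 were again among the 10 highest and the 5 lowest, with r of at least 0.99 and at most -0.99.

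**Figure D4:**
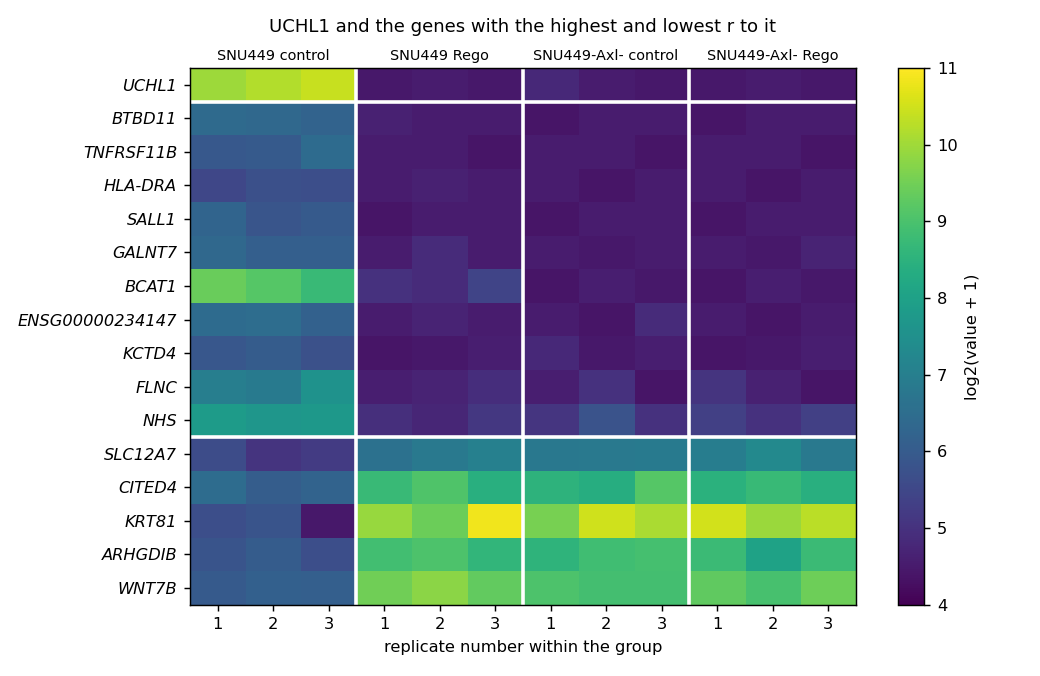
log2(value + 1) of UCHL1, of the 10 genes with the highest Pearson r to it and of the 5 with the lowest, in the 12 libraries; white lines part the groups and the kinds of gene. The genes of the upper block are high in the 3 SNU449 control libraries, and those of the lower block are low there.

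The position of UCHL1 was compared with that of the genes beside it. Within 1 Mb on either side 6 measured genes lie on chromosome 4: RBM47, NSUN7 and APBB2 before UCHL1, at 626, 445 and 39.7 kb, and TMEM33, DCAF4L1 and SLC30A9 after it, at 667, 713 and 722 kb. APBB2, the nearest, encodes an adaptor that binds the amyloid precursor protein. It had 179, 222 and 180 in SNU449 control, 263, 198 and 239 in SNU449 Rego, 160, 169 and 153 in SNU449-Axl- control and 125, 127 and 143 in SNU449-Axl- Rego. Its SNU449 control libraries overlap those of SNU449 Rego, unlike those of UCHL1, and lie above all 6 SNU449-Axl- libraries, as those of UCHL1 do. APBB2 was not called for Rego in SNU449 (0.27, adjusted p = 0.455) or for Axl loss in control cells (-0.26, adjusted p = 0.463), the comparisons of a high with a floor level of UCHL1. It fell by 0.81 with Axl loss in Rego-resistant cells (adjusted p = 0.0179), a call lost in 5 of 18 alternatives.

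RBM47, an RNA-binding protein of epithelial cells, had 96, 63 and 54 in SNU449 control, 75, 99 and 77 in SNU449 Rego, 72, 75 and 81 in SNU449-Axl- control and 175, 192 and 270 in SNU449-Axl- Rego. Its high group is not that of UCHL1. RBM47 rose by 1.45 with Rego in SNU449-Axl- (adjusted p = 0.00138) and by 1.32 with Axl loss in Rego-resistant cells (adjusted p = 0.0028), and kept both calls in all 18 alternatives. NSUN7 (21 to 43), TMEM33 (221 to 321), DCAF4L1 (20 to 31) and SLC30A9 (217 to 387) were not called in the 5 comparisons. UCHL1-DT, a long noncoding RNA on the opposite strand that shares 315 bases with UCHL1, was not analysed here, as no table lists it.

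Overlapping genes of the other members were looked up in GENCODE 44. UCHL3 shares 56248 bases of the same strand with ENSG00000261553, which has no value, and 1321 bases with LMO7-AS1 on the opposite strand, which had values between 23 and 46. UCHL5 holds SCARNA18B, a small RNA of 135 bases with values between 21 and 38, on its own strand, and shares 627 bases with RO60 on the opposite strand. RO60, which encodes an RNA-binding autoantigen, had values between 232 and 469. Whether the counts of these overlapping genes were separated by strand was not analysed here.

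**Figure D5:**
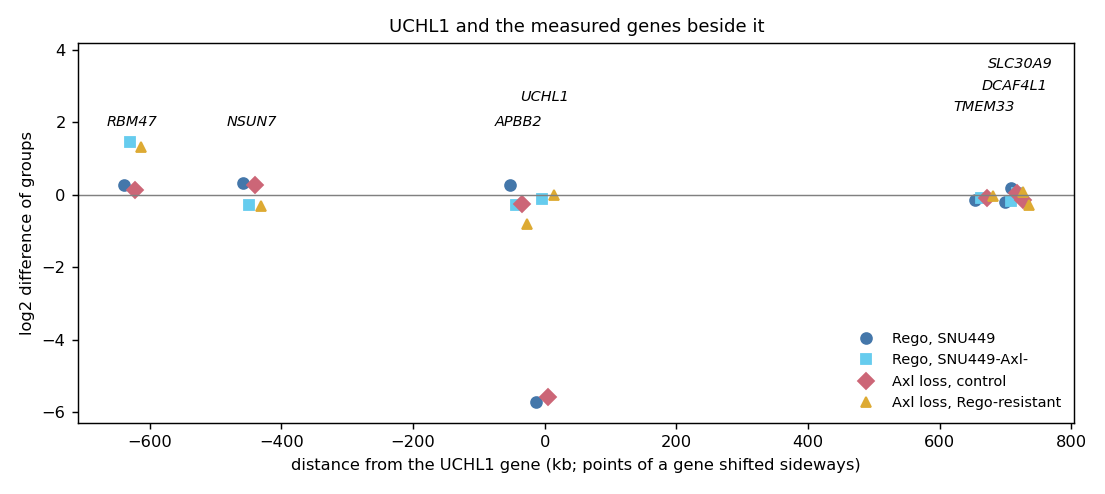
Differences of group means (log2) of UCHL1 and of the 6 measured genes within 1 Mb of it, by distance from UCHL1 in kb, in 4 comparisons. UCHL1 is at -5.71 and -5.60 with Rego in SNU449 and Axl loss in control cells, where APBB2 is at 0.27 and -0.26.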

How the data were processed

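The reads had been trimmed by the authors with cutadapt 4.0, aligned with STAR 2.5.3a to GRCh38 and spike-ins and counted by gene of GENCODE 40; the authors then compared groups in DESeq2 and took the preparation date into account. Used here were 8 of the deposited tables. The library values were taken as deposited and read as scores made separately for each table, a scale inferred from the methods of the authors and from the values. The signal of a gene is the mean normalized count that the authors deposited. The authors' fold changes and p-values were not used here.

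Each comparison was a two-sided test of limma 3.58.1 (lmFit and trended eBayes, run in R 4.3.3) on log2(value + 1), taken from the 12-library table made for the backgrounds, with group and replicate number as terms and the 32 spike-in RNAs left out. The replicate number was a term, in place of a preparation date that is not given, because the values are balanced along it: averaged over the groups, the libraries of a number deviated by a median of 0.00126, against 0.122 for a single library. Genes with an adjusted p under 0.05 were called. The members and lists were chosen with earlier results of these data known. Named were the members, AXL, set genes of the partner list, set ubiquitin genes and neighbours within 1 Mb. Also named were up to 2 called genes per direction, list and comparison with the largest changes, and the 10 highest and 5 lowest r to UCHL1. PSME1 and the remaining called genes of the partner list were chosen after their values were seen. So were genes named to show a range, an absence or another direction. Coordinates come from GENCODE 44 on GRCh38, the build of the authors. Group means on the count scale were solved by non-negative least squares with 1 scale per table over 12878 genes found in each table. Tables were handled with Python 3.11.15, pandas 2.3.3, numpy 2.4.6 and scipy 1.17.1.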

Additional observations from a re-analysis of the deposited data

Results flagged for a closer look

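The test of the difference of the Rego effect between SNU449-Axl- and SNU449 cells was passed by 11 of the named genes, with n = 3 libraries a group, 1 cell population each, and adjusted p-values from limma over all genes. In the proteasome these were PSMB8 (1.51, adjusted p = 0.0112), PSMB9 (1.60, adjusted p = 0.008) and PSMC4 (-0.99, adjusted p = 0.0322). In the NEDD8 cycle they were COPS4 (1.33, adjusted p = 0.0109) and UBE2M (-1.67, adjusted p = 0.00246). Among other deubiquitinases they were OTUD4 (1.09, adjusted p = 0.0192), MPND (-0.998, adjusted p = 0.0452) and USP7 (-0.86, adjusted p = 0.04996). FN1 (4.71, adjusted p = 3.44e-05), the hepatocyte marker FGB (2.38, adjusted p = 0.0126) and RBM47, a neighbour of UCHL1 (1.18, adjusted p = 0.0411), passed it too. PSMB8, PSMB9, COPS4, UBE2M and FN1 kept the call in all 17 alternatives. USP7 lost it in 15 of 17 (adjusted p up to 0.163), MPND in 11 of 16 (up to 0.159), PSMC4 in 10 of 17 (up to 0.118), RBM47 in 9 of 17 (up to 0.143) and OTUD4 in 5 of 17 (up to 0.0721), and FGB lost it in 1 of 17, without replicate 2 of SNU449-Axl- Rego (adjusted p = 0.0537). UCHL3, UCHL5 and BAP1 did not pass it, and UCHL1 was not tested. Groups of 3 libraries were not tested for outlying ones.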

How the results depend on the processing

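The main limits are the single cell population per group, the unknown depth of the libraries, and values whose scale was inferred and from which the authors appear to have removed the effect of the preparation date. UCHL3, UCHL5 and BAP1 kept their side of the threshold in each alternative, with 1 exception: UCHL5 for Axl loss in control cells passed it without replicate 2 of SNU449 control (adjusted p = 0.0495). The low values of UCHL1 lie at a floor, so that the size of its differences depends on the handling of that floor. Of 58 calls of other named genes, 18 were lost with centring on the spike-in RNAs and 14 of 47 in the tables of pairs of groups. The causes of the changes below were not tested unless named.

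Without a replicate block the genes called numbered 2175, 1552, 2182, 1503 and 1826 for Rego in SNU449, Rego in SNU449-Axl-, Axl loss in control cells, Axl loss in Rego-resistant cells and the difference of the Rego effect, against 1219, 678, 1163, 682 and 916 with it, a fit that counts more degrees of freedom. In the same order it called 5, 2, 2, 2 and 4 genes of the partner list and 0, 1, 0, 1 and 2 ubiquitin and ubiquitin-like precursors. It also called 6, 7, 9, 7 and 4 other deubiquitinases, 8, 1, 9, 0 and 4 proteasome subunits and 6, 3, 4, 4 and 3 genes of the NEDD8 cycle. With a mean normalized count of at least 50, which leaves fewer genes, 746 were called for Rego in SNU449 and 450 for Axl loss in Rego-resistant cells. The tables of pairs hold fewer libraries, fewer genes and values made separately. They gave 603 for Rego in SNU449 and 818 for Rego in SNU449-Axl-. For Axl loss they gave 603 in control and 1160 in Rego-resistant cells, and centring on the spike-in RNAs gave 1799 in the latter. UCHL1 differed by -4.99 for Rego in SNU449, -4.92 for Axl loss in control cells and 4.92 for the difference with a pseudocount of 16, by -4.83 and -4.95 for the first 2 in the tables of pairs, and by -5.40 and 0.29 for Axl loss in control and Rego-resistant cells with spike-in centring. BAP1 for Axl loss in Rego-resistant cells turned to -0.0047 with upper-quartile rescaling, and UCHL3 for the difference to 0.0055 with spike-in centring.

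Without 1 library at a time, the genes called ranged from 740 to 1299, 205 to 891, 540 to 1275, 219 to 826 and 523 to 922 in the order above. UCHL5 ranged from -0.50 to 0.068 for Rego in SNU449, from 0.27 to 0.84 for Axl loss in control cells and from -0.40 to 0.17 for the difference. BAP1 ranged from -0.11 to 0.26 for Rego in SNU449-Axl- and from -0.14 to 0.24 for Axl loss in Rego-resistant cells, and UCHL3 from -0.19 to 0.019 for the difference. For BAP1 the range was 0.12 to 0.50 for Rego in SNU449, 0.19 to 0.46 for Axl loss in control cells and -0.46 to -0.058 for the difference. UCHL1 ranged from -0.21 to 0.032 for Rego in SNU449-Axl-, from -5.75 to -5.46 for Axl loss in control cells and from 5.46 to 5.75 for the difference. On the count scale, a scale for each group in a table, added after seeing the data, gave UCHL1 means of 1190, 0.308, 0.696 and 0.154.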
